A study of Mus musculus with 167 samples.

Results

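The collagen genes of the mouse were followed through a reprogramming experiment in which embryonic fibroblasts (MEFs, connective tissue cells that secrete large amounts of collagen) were transduced with transcription factors of dendritic cells. The members are the genes whose symbols name a collagen alpha chain, which gave 44 of the 52029 named identifiers in the count table (57010 identifiers in all). By protein class they are 11 fibrillar chains, 6 chains of the basement membrane network (type IV), 4 collagens of the basement membrane zone, 6 beaded filament chains (type VI), 3 short chain collagens, 9 fibril-associated collagens (FACIT), 3 transmembrane collagens and 2 others. The question was which collagens persist in each factor cocktail.

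The C9a.MEF line carried Clec9a Cre/Cre and Rosa26 tdTomato/tdTomato, so that tdTomato (tdT) marks cells in which Cre from the Clec9a locus acted. The hCD2.MEF line carried hCD2 Cre/WT and Rosa26 YFP/WT on a C57BL/6 background, with YFP as the reporter. Lentivirus delivered Pu.1, Irf8 and Batf3 (PIB), Pu.1, Irf4 and Prdm1 (PIP) or Spib, Irf8 and Ikzf2 (SII). PIB and PIP went into C9a.MEF, and SII went into both lines (C9a.SII and hCD2.SII). All transduced cells were kept in serum-containing medium on gelatin-coated plates and were sorted after 3, 6 or 9 days by CD45, by the reporter, or by both. The cells positive for both (tdT+CD45+ or YFP+CD45+) are the main subject and are called reporter+CD45+ cells, with 3 to 5 libraries per cocktail and day. The controls were untransduced C9a.MEF sorted as tdT-CD45- (n = 4) and hCD2.MEF sorted as YFP-CD45- (n = 4). No group was transduced without a cocktail, so cocktail, transduction, culture time and sorting cannot be told apart against these controls. Wildtype spleen gave conventional dendritic cells of type 1 (cDC1, CD11c+ MHC-II+ XCR1+ CD11b-, n = 3) and type 2 (cDC2, CD11c+ MHC-II+ CD11b+ XCR1-, n = 3) and plasmacytoid dendritic cells (pDC, CD11c+ Siglec-H+ B220+ BST2+, n = 5). The labels do not say whether replicates came from separate cultures or embryos, so the p-values measure the spread between libraries, which may be technical.

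A collagen is a trimer of alpha chains wound into a triple helix. Fibrillar collagens such as type I (Col1a1 and Col1a2 chains) and type III (Col3a1) form the tensile fibres of connective tissue, type IV forms the sheet-like network of basement membranes, type VI forms beaded filaments around cells, and FACIT collagens such as type XII decorate fibrils. Fibroblasts are the main source of the fibrillar chains, and haematopoietic cells make little fibrillar collagen. In the type IV family the genes lie in head-to-head pairs, each pair read from a shared region between the starts.

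Library totals ran from 1146927 to 21976374 counts (median 10960122), and levels are given as CPM, counts scaled to one common library total. At the lowest depth a count of 0 allows up to 2.62 CPM, and at the median depth 0.274 CPM (3 counts, counting error only). A collagen is named with values where it reached 10 CPM in every library of at least 1 MEF or reporter+CD45+ group, which held for 24 of the 44. The sort by CD45 could be read from Ptprc at day 9 in the C9a line. Ptprc, which encodes CD45, was at 0.154 to 0.368 CPM in C9a.MEF and at 171 to 293 CPM (PIB), 58.5 to 98.9 CPM (PIP) and 120 to 174 CPM (C9a.SII) in reporter+CD45+ cells at day 9. Of the transduced factors, Spi1 (Pu.1) stood at a mean of 190 CPM in PIB, Irf4 at 364 CPM in PIP and Ikzf2 at 514 CPM in C9a.SII. The 3 hCD2.SII libraries of day 9 did not match each other: Ptprc was 71.2 CPM in replicate 1 and 229 and 271 CPM in replicates 2 and 3. Other libraries that stood apart were C9a.SII day 9 replicate 1 (the lowest total), PIP day 3 replicate 3 (Ptprc 14.1 CPM), C9a.SII day 3 replicate 2 (Ptprc 1.52 CPM) and PIP day 6 replicate 4. In 3 libraries of the reporter gate, on day 3 or 6, the factors detected went against the label. These 3 were in none of the groups compared, but the alternative of 1 fit over all groups included every library.

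Summed over 10 fibroblast markers, day 9 reporter+CD45+ cells held 15825 to 17947 CPM (PIB), 3115 to 3267 CPM (PIP) and 16059 to 36528 CPM (C9a.SII), against 19161 to 19573 CPM in C9a.MEF. In hCD2.SII they held 32642 to 38474 CPM, against 18141 to 20354 CPM in hCD2.MEF. Fn1, the fibronectin gene, made up most of the SII sums, at 26493 CPM in C9a.SII. Of the 10 markers, 8 fell in PIB, 9 in PIP and 8 in C9a.SII, where Fn1 rose. Of all tested genes, 11.4% (PIB), 14.5% (PIP) and 11.1% (C9a.SII) were called lower at day 9, by the test given below. Summed leukocyte markers were 6.44 to 8.10 CPM in C9a.MEF and 551 to 919 CPM over the reporter+CD45+ libraries of PIB, PIP and C9a.SII at day 9. Summed smooth muscle and pericyte markers were 2022 to 2184 CPM in C9a.MEF and 111.9 to 203 CPM (PIB), 50.5 to 69.5 CPM (PIP) and 609 to 1160 CPM (C9a.SII) at day 9. Summed endothelial, epithelial, chondrocyte, osteoblast and Schwann cell markers were each at 111.6 CPM or less in these groups. The part of any of these cells in the collagen results was not tested, and in bulk samples fewer collagen-producing cells and less collagen RNA per cell cannot be told apart.

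Collagens as a whole took 2.55% ± 0.0692 (SD, n = 4) of the counts of C9a.MEF, and a smaller share in each transduced group. At day 9 the share was 1.16% in PIB (1.05 to 1.20%), 0.530% in PIP (0.447 to 0.604%) and 0.563% in C9a.SII (0.493 to 0.601%). In hCD2.MEF it was 2.13 to 2.53%, and the 3 hCD2.SII libraries held 1.28%, 0.278% and 0.258%. Fibrillar chains made 63.9% of collagen counts in C9a.MEF, 66.4% in PIB, 25.3% in PIP and 46.5% in C9a.SII at day 9. The type IV network made 7.66% in C9a.MEF, 20.7% in PIB and 59.7% in PIP, where its share was 35.6% on day 3 and 48.8% on day 6. The earlier PIP libraries spread widely: Col4a2 alone made 13.3 to 23.1% of collagen counts on day 3 and 16.4 to 30.6% on day 6. On day 9 Col4a2 made 32.2 to 34.4% in PIP. FACIT collagens made 18.8% in C9a.MEF, 6.64% in PIB, 2.76% in PIP and 36.5% in C9a.SII.

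**Figure D1:**
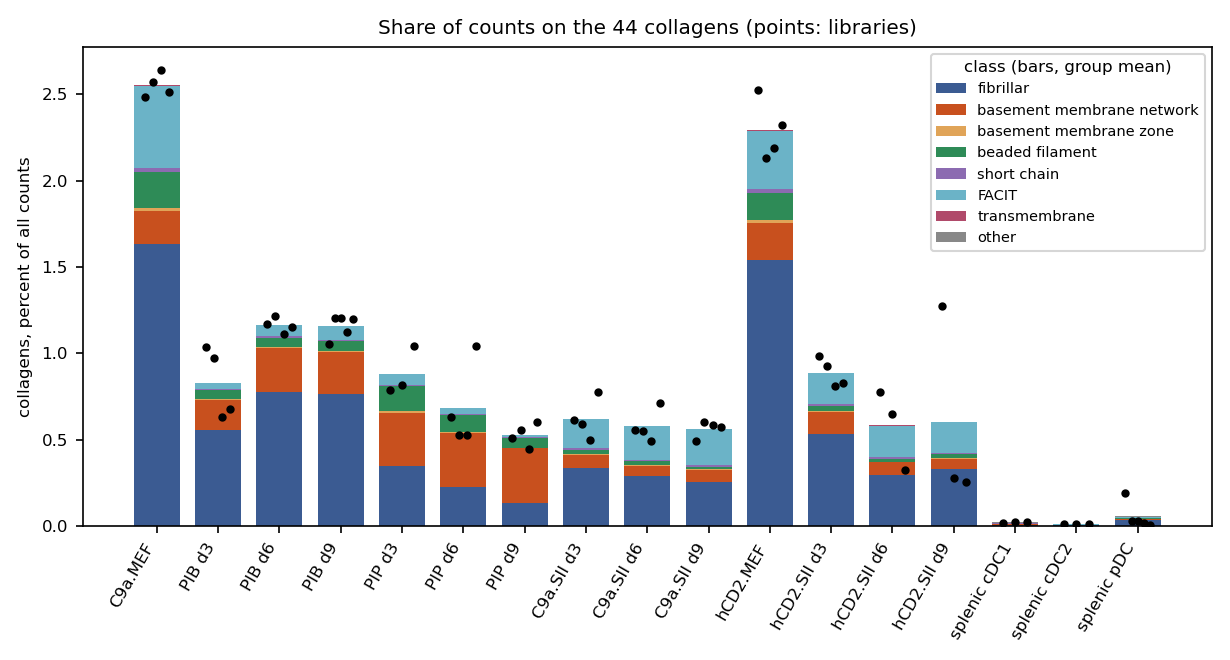
Share of all counts on the 44 collagens, in percent, for fibroblasts, reporter+CD45+ cells by day and splenic cells: bars are group means split by collagen class and points are libraries. The bars fall from 2.55% in C9a.MEF to between 0.530% and 1.16% at day 9, and the type IV segment is the largest of the PIP bar at day 9.

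Each cocktail was compared with the fibroblasts of its own line at day 9 (edgeR quasi-likelihood test, called at a Benjamini-Hochberg adjusted p under 0.05 and at least 2-fold). In PIB 36 collagens were tested, 1 was higher and 18 were lower, while 10.4% of all tested genes were called higher and 11.4% lower. In PIP 36 were tested, with 5 higher and 22 lower, beside 15.2% and 14.5% of all genes. In C9a.SII 34 were tested, with 2 higher and 22 lower, beside 10.3% and 11.1% of all genes. In hCD2.SII 37 were tested, with 2 higher and 9 lower, beside 10.8% and 8.42% of all genes (19.2% in either direction). The median log2 change of the tested collagens was -1.04 in PIB, -1.96 in PIP, -1.65 in C9a.SII and -0.91 in hCD2.SII, where the median of all genes lay between 0.00 and 0.05. The 3 comparisons of PIB, PIP and C9a.SII share the C9a.MEF libraries. Scaled by library totals alone, the median of all genes in PIP moved by -0.23 on the log2 scale, 39.4% instead of 51.2% of all called genes were higher, and 3 collagens were higher and 22 lower. The hCD2.SII counts turn on replicate 1: without it 26 collagens were called, 6 higher and 20 lower, of which 11 were among those called with it, and without any other single library of the comparison 2 to 5 were called.

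**Figure D2:**
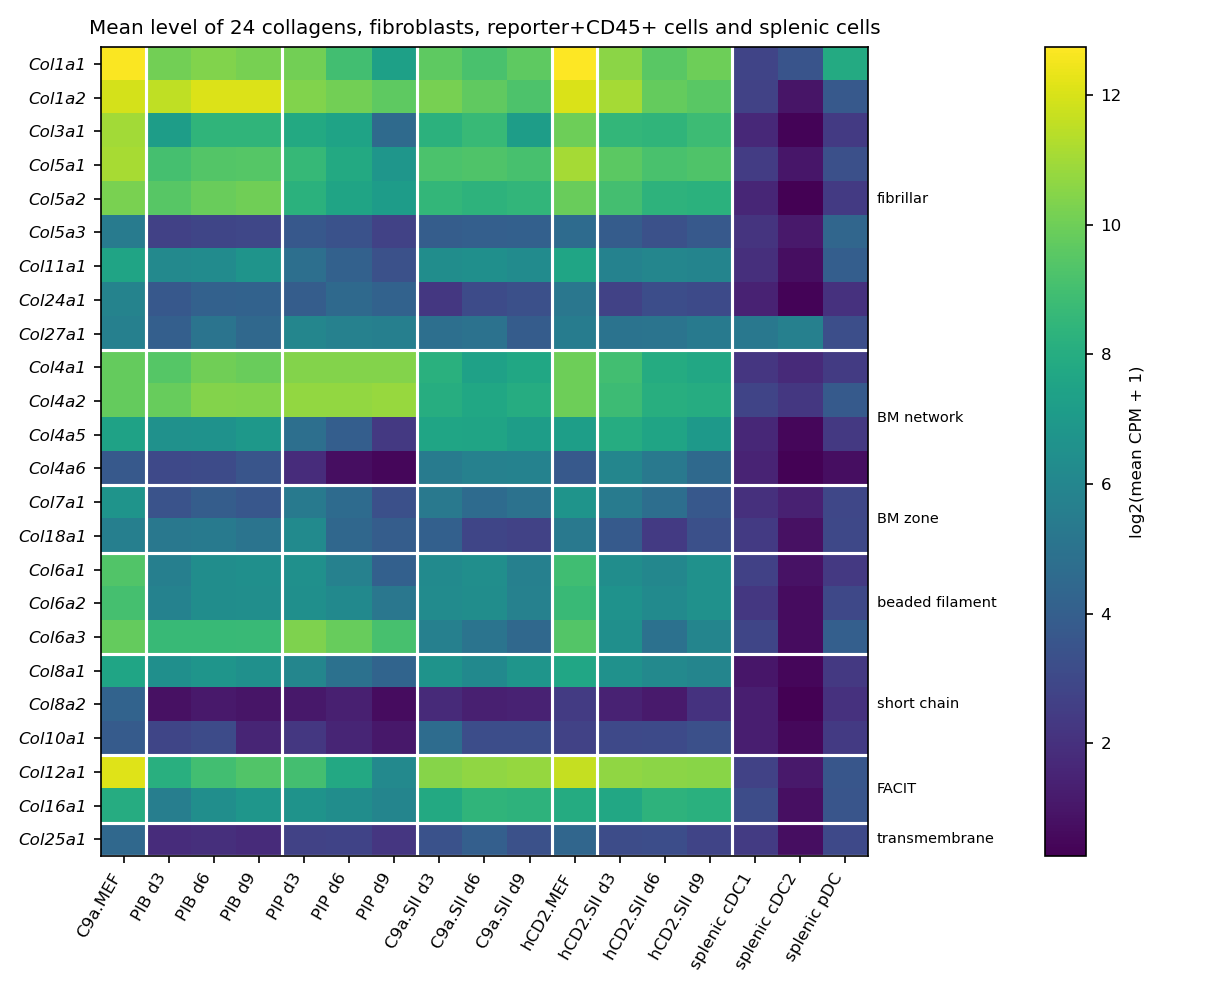
Mean level of the 24 named collagens as log2(mean CPM + 1), by group: MEFs, reporter+CD45+ cells by day, and splenic cells, with collagens ordered by class. Col1a1 goes from a mean of 6596 CPM in C9a.MEF to 161.4 CPM in PIP at day 9, whereas the means of Col4a1 and Col4a2 lie above the fibroblast means in PIB and PIP at day 9.

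Promoter windows of 4 genes are shown because their genes carry the main contrasts: Col1a2, at 113.6% of its fibroblast level in PIB at day 9, Col4a5 and Col4a6, a head-to-head pair of which Col4a6 but not Col4a5 was called in C9a.SII, and Col6a3, at 72.3% in PIP and 2.53% in C9a.SII. They were read from RefSeq on GRCm38.p6, 5′ to 3′ on the strand of the gene, cut back to bases that lie in no exon of the GENCODE M21 annotation. Capitals mark GGAA or its complement TTCC, the core bound by ETS proteins, the family of Pu.1 and Spib. The windows are Col1a2 at chr6:4505370-4505492 (plus strand, ending upstream of the RefSeq start, which lies inside the longer span GENCODE gives the gene), Col4a5 at chrX:141475169-141475384 (plus strand, ending 34 bases before the start), Col4a6 at chrX:141474077-141474326 (minus strand) and Col6a3 at chr1:90843972-90844221 (minus strand).
Col1a2: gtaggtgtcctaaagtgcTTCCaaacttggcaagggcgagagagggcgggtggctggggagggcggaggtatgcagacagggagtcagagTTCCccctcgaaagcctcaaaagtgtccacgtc
Col4a5: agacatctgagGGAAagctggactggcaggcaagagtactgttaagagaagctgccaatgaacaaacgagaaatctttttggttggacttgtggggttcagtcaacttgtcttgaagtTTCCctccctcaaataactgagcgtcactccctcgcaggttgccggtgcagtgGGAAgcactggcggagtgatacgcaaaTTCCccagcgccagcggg
Col4a6: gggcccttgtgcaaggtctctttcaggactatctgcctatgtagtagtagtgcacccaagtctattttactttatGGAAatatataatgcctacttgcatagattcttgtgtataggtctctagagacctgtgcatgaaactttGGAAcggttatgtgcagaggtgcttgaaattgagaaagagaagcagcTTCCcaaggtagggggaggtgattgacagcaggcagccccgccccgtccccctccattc
Col6a3: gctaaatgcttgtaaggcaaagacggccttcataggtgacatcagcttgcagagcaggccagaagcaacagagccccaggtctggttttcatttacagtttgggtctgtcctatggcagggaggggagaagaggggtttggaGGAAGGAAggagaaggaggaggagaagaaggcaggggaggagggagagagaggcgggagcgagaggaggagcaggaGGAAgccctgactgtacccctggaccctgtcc
The core is common: 93.4% of all 32536 RefSeq promoter windows hold it on either strand, and so did all 38 collagen windows (35 genes matched), counted over the bases before the start without the cut at exons. Cut back, the short window of Col4a4 holds none. Longer motifs were searched on both strands of the uncut windows. The purine-rich Pu.1-type site GAGGAAGT was in 0 of the 38 and in 2.45% of all windows, the ETS-IRF composite element in 0 of the 38 and in 2.31%, and the interferon response element in 0 of the 38 and in 2.98%. The GC box GGGCGG was in 22 of the 38 and in 32.97% of all windows, the CCAAT box in 13 and 33.8%, and TATAAA in 5 and 12.3%. These are matches of letters in short windows and show neither a bound site nor the lack of one.

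Type I collagen, the main fibrillar collagen of the MEFs, split by chain. Col1a1, which encodes the alpha-1 chain (chr11:94936224-94953042, plus strand), stood at 6434, 6533, 6961 and 6455 CPM in the C9a.MEF libraries. It was at 1079, 1246, 1163, 1107 and 1141 CPM in PIB at day 9 and at 178, 155.5, 148.96 and 163.1 CPM in PIP. In C9a.SII it was at 1373, 667, 644 and 559 CPM. No library of these 3 groups overlapped the fibroblasts, and the C9a.SII library with the highest value was the shallow replicate 1. Col1a1 fell to 18.2% of its fibroblast level in PIB (95% interval 16.6 to 19.8%, edgeR adjusted p = 2e-12) and to 2.87% in PIP (2.58 to 3.19%, adjusted p = 1.6e-18). In C9a.SII it fell to 13.8% (6.93 to 27.4%, adjusted p = 0.0012).

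Col1a2, the gene of the alpha-2 chain (chr6:4504814-4541544, plus strand), was the named fibrillar chain with the highest level in PIB cells. Its CPM were 3815, 3904, 4077 and 3882 in C9a.MEF and 3825, 4072, 4236, 4006 and 5257 in PIB at day 9, so that the groups overlapped. The PIB level was 113.6% of the fibroblasts (102.4 to 126.1%, edgeR adjusted p = 0.036), which is below the 2-fold limit of a call. In PIP the libraries held 751, 878, 658 and 947 CPM, and Col1a2 fell to 24.04% (21.5 to 26.9%). In C9a.SII they held 628, 589, 642 and 581 CPM, and it fell to 16.7% (14.1 to 19.8%). A direct comparison put Col1a2 higher in PIB than in PIP by 2.27 ± 0.10 (log2, SE, adjusted p = 8.2e-10) and higher than in C9a.SII by 2.75 ± 0.12 (adjusted p = 2.2e-08).

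**Figure D3:**
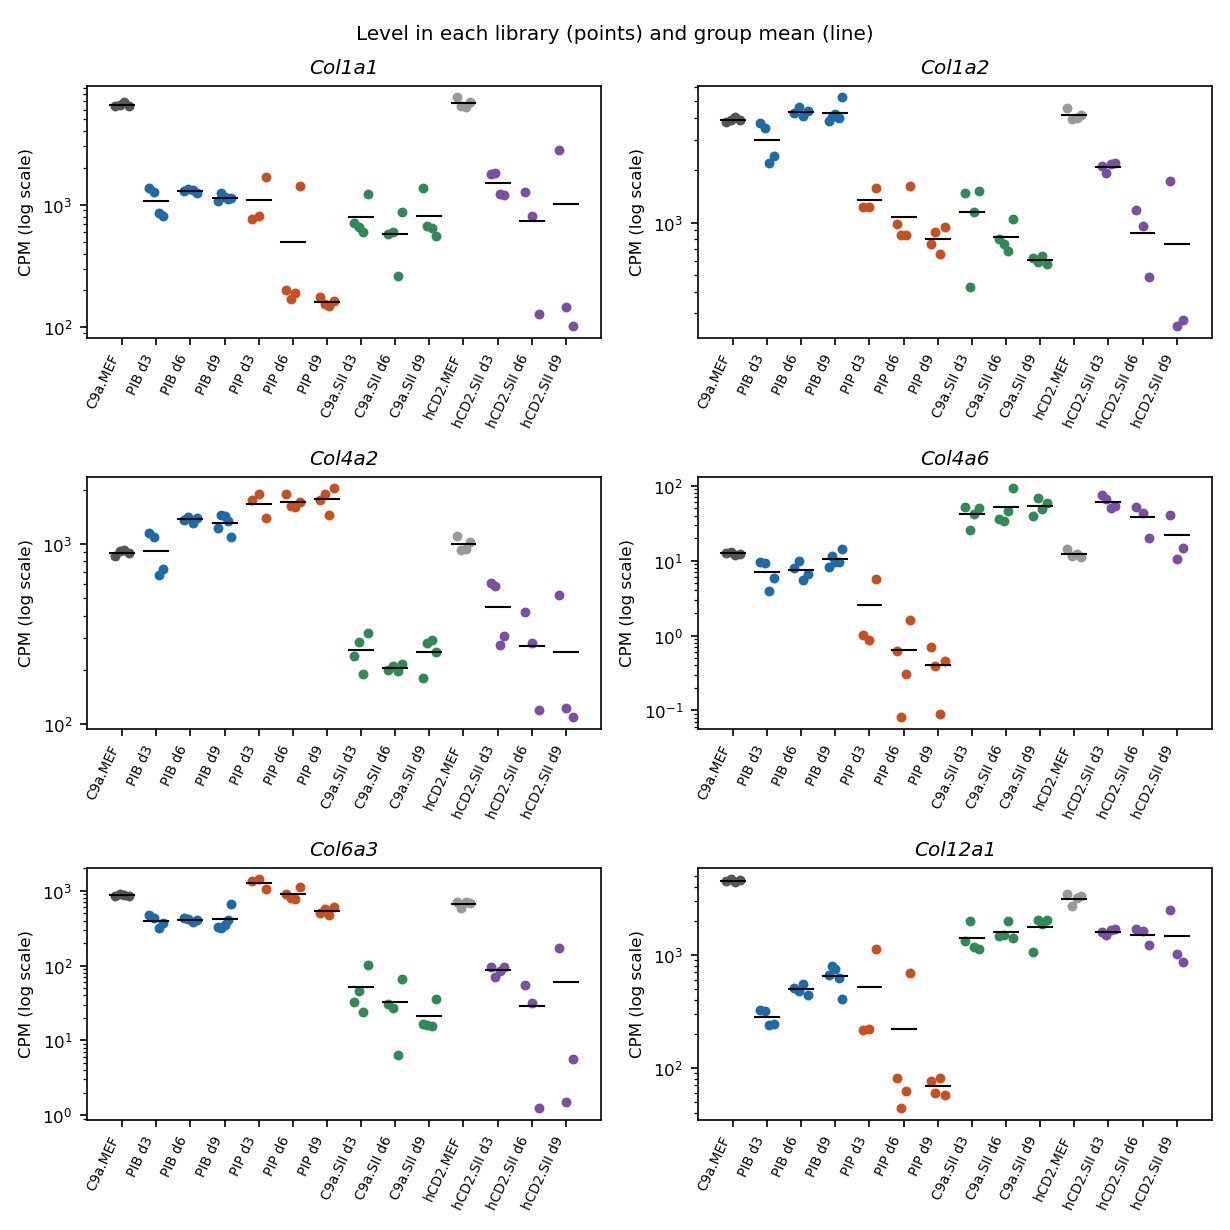
CPM on a log axis of 6 collagens in each library (points) with the group mean (line), for fibroblasts and reporter+CD45+ cells by day. Col1a2 in PIB lies at or above the lowest fibroblast library on days 6 and 9, Col4a2 in PIP lies above all fibroblast libraries, and in hCD2.SII at day 9 replicate 1 lies above the other libraries in all 6 panels.

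The ratio of the type I chains was taken within each library. Col1a1 counts were 1.68 times the Col1a2 counts in C9a.MEF (geometric mean, 1.66 to 1.71) and 0.270 times in PIB (0.217 to 0.306). They were 0.201 times in PIP (0.172 to 0.237) and 1.24 times in C9a.SII (0.963 to 2.19). The exact permutation test, two-sided, gave p = 0.0159 for PIB (n = 5 against 4), p = 0.0286 for PIP (4 against 4) and p = 0.143 for C9a.SII. The first pair are the smallest values these designs allow, and the lowest p adjusted over the 16 ratios tested was 0.0571, so none passed 0.05. In hCD2.SII the ratio was 0.702 (0.370 to 1.61), against 1.64 in hCD2.MEF (exact p = 0.114). The ratio of 1.61 was that of replicate 1. With 3 against 4 libraries the smallest p of the permutation test is 0.0571, so the hCD2.SII test could not pass 0.05.

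**Figure D4:**
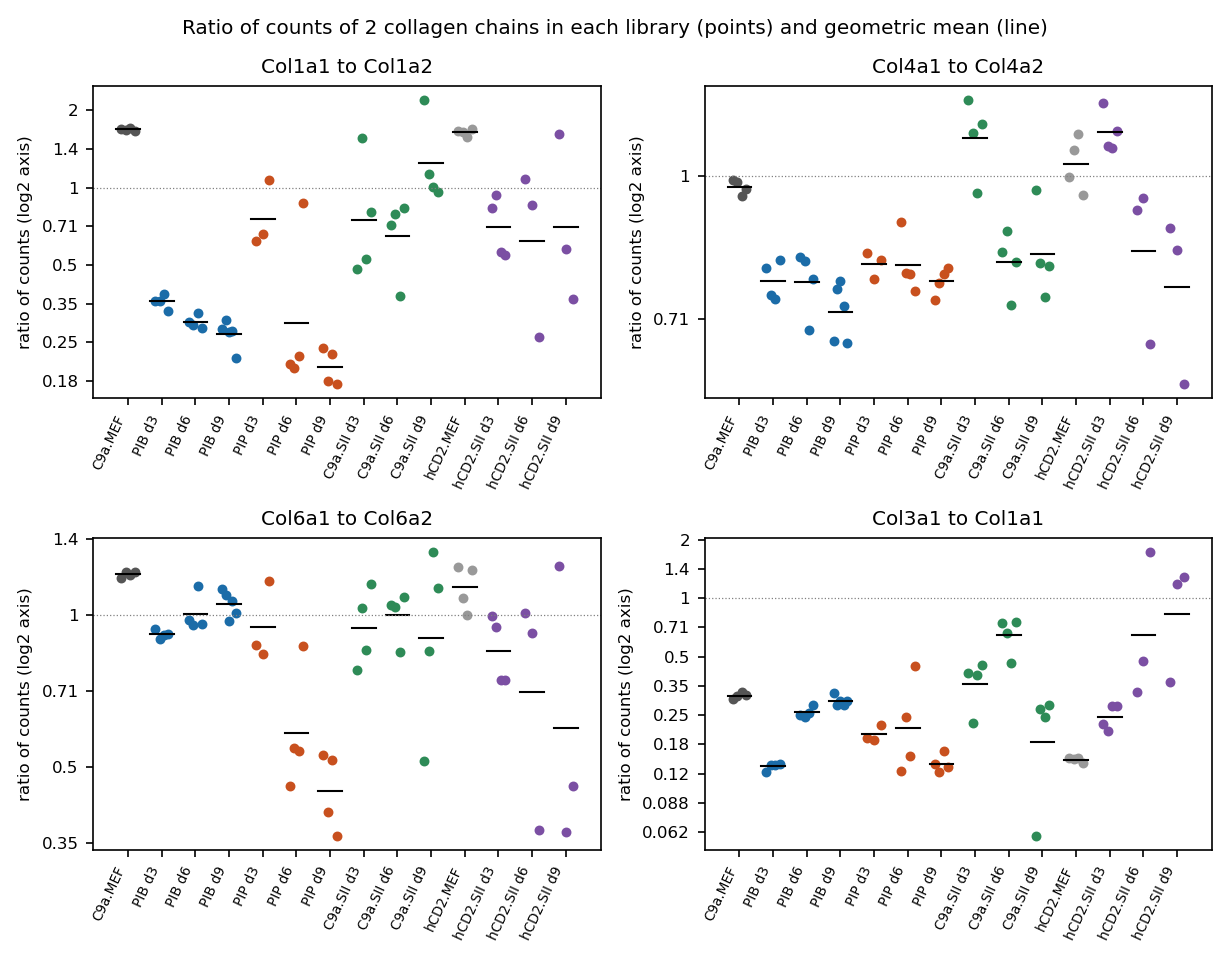
Ratio of the counts of 2 collagen chains in each library (points, log2 axis) with the geometric mean (line), for fibroblasts and reporter+CD45+ cells by day. Col1a1 to Col1a2 lies near 1.68 in C9a.MEF and between 0.172 and 0.306 in all day 9 libraries of PIB and PIP, and Col3a1 to Col1a1 lies above all fibroblast libraries in hCD2.SII at day 9.

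Col3a1, the type III chain, fell in PIB, PIP and C9a.SII, as Col1a1 did. Its CPM were 1957, 2041, 2280 and 2048 in C9a.MEF, 351, 353, 345, 313 and 337 in PIB, and 24.9, 19.7, 24.4 and 21.9 in PIP at day 9. In C9a.SII they were 81.96, 180, 156.6 and 158.4. It fell to 17.1% in PIB (15.4 to 18.9%), 1.28% in PIP (1.098 to 1.49%) and 7.24% in C9a.SII (5.71 to 9.19%). At day 9 this was the lowest percentage of any named collagen in PIP. Counts of Col3a1 were 0.315 times those of Col1a1 in C9a.MEF and 0.296 (PIB), 0.141 (PIP) and 0.183 (C9a.SII) times at day 9, and they were 0.148 times in hCD2.MEF and 0.828 times in hCD2.SII (0.372 to 1.28). The two-sided exact permutation test gave p = 0.0952 for PIB, p = 0.0286 for PIP and for C9a.SII (n = 4 against 4) and p = 0.0571 for hCD2.SII (n = 3 against 4), and none passed 0.05 after adjustment over the 16 ratios. Col3a1 lies tail to tail with Col5a2 on chromosome 1 (chr1:45311538-45349706 and chr1:45374321-45503282), and the neighbours differed in PIB, where Col5a2 was at 93.8% (79.3 to 111.05%).

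Among the type V and XI chains, which nucleate and limit fibrils, Col5a2 was the member kept in PIB: 983, 1164, 1206, 1137 and 809 CPM, against 1168, 1203, 1200 and 1155 CPM in C9a.MEF. Its partner chain Col5a1 fell there to 33.1% (30.3 to 36.1%) and the minor chain Col5a3 to 16.1% (13.8 to 18.8%). In PIP Col5a1 fell to 5.98%, Col5a2 to 14.0% and Col5a3 to 15.2%. In C9a.SII Col5a1 fell to 26.3% and Col5a2 to 31.8%. Col5a3 in C9a.SII overlapped the fibroblasts through replicate 1 (40.98 CPM, against 5.89 to 8.21 CPM in the others), and its call was lost in 10 of 15 alternatives, while without that library its log2 change went from -1.93 to -2.51. Col11a1 was at 59.4% in PIB (48.5 to 72.7%, not called), at 5.66% in PIP and at 44.04% in C9a.SII. The calls of Col11a1, Col12a1 and Col27a1 in C9a.SII were lost in 1 fit over all groups.

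Col24a1 and Col27a1, fibrillar collagens of cartilage and bone type, were minor in the MEFs, at 55.9 ± 6.04 and 50.4 ± 5.80 CPM (SD, n = 4). Col24a1 fell in PIB (31.5%), PIP (35.2%) and C9a.SII (18.4%). Col27a1 was at 114.3% in PIP (65.5 to 199%) and at 43.9% in PIB (20.02 to 96.2%), neither called, and fell to 31.99% in C9a.SII. By class, of 11 fibrillar collagens tested 5 fell in PIB, 8 in PIP, 9 in C9a.SII and 3 in hCD2.SII, and none rose. Of all tested genes, 11.4%, 14.5%, 11.1% and 8.42% were called lower in these comparisons. The hCD2.SII count turns on replicate 1: without it Col1a1, Col3a1, Col5a1, Col5a3 and Col24a1 were also called lower. Col11a2 was called without it too, but not as a further fall: with all libraries the DESeq2 Wald test called Col11a2 higher.

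The type IV network chains differed by gene and by cocktail, and the 2 genes of a pair did not always go together. Col4a1 (chr8:11198423-11312826, minus strand) and Col4a2 (chr8:11312805-11449287, plus strand) make the common form of the network. In C9a.MEF Col4a2 was at 852, 917, 922 and 892 CPM, and in PIP at day 9 at 1754, 1900, 1440 and 2031 CPM. All PIP libraries lay above all fibroblast libraries, and Col4a2 rose to 232% (209 to 258%, edgeR adjusted p = 5.7e-10), a log2 change of 1.21. Scaled by library totals alone the change was 0.99, below the limit of a call. Col4a1 moved with it, from 843, 904, 877 and 864 CPM to 1298, 1468, 1136 and 1624 CPM. That was 185% (166.6 to 205%, adjusted p = 1.9e-08), less than 2-fold.

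In PIB the same pair was also at or above the fibroblast level. Col4a2 stood at 1228, 1453, 1427, 1347 and 1086 CPM, above all fibroblast libraries, at 152.7% (133.9 to 174%, edgeR adjusted p = 5.3e-05, less than 2-fold). Col4a1 stood at 824, 1106, 1108, 982 and 725 CPM and overlapped the fibroblasts, at 113.8% (93.8 to 138.1%). In C9a.SII the pair was lower: Col4a1 at 174, 228, 220 and 202 CPM fell to 25.1% (22.5 to 27.9%), and Col4a2 at 180, 281, 295 and 251 CPM fell to 29.6% (25.6 to 34.2%). Set against each other, PIP exceeded C9a.SII by 2.87 ± 0.10 (log2, SE, adjusted p = 7.1e-09) for Col4a1 and by 2.96 ± 0.13 (adjusted p = 2.1e-08) for Col4a2. Counts of Col4a1 were 0.974 times those of Col4a2 in C9a.MEF and 0.720 (PIB), 0.775 (PIP) and 0.828 (C9a.SII) times at day 9. The exact permutation test, two-sided, gave p = 0.0159 (PIB), p = 0.0286 (PIP) and p = 0.0571 (C9a.SII). None of these passed 0.05 after adjustment over all 16 ratios tested.

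Col4a5 and Col4a6, on the X chromosome, are the chains of a less common network. Their promoter windows shown above lie at either end of the 1308 bases between the genes. Col4a5 was at 182, 171, 172 and 169 CPM in C9a.MEF and at 94.1, 138.3, 130, 107.5 and 121.2 CPM in PIB, which was 71.1% (62.3 to 81.2%, below 2-fold). In C9a.SII it was at 142.1, 145.2, 138.7 and 156.1 CPM, or 89.5% (78.5 to 102.1%, adjusted p = 0.15). In PIP it fell to 4.85, 3.87, 4.49 and 2.74 CPM, or 2.71% (2.32 to 3.18%). Col4a5 was lowest in PIP, where Col4a2 was highest.

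Col4a6 rose in the SII cells of the C9a line. It was low in C9a.MEF, at 12.7, 12.9, 11.95 and 12.3 CPM, and stood at 39.2, 68.7, 49.5 and 58.6 CPM in C9a.SII at day 9. It rose to 460% (393 to 537%, log2 2.20 ± 0.10 SE, edgeR adjusted p = 4.2e-08), with every library above the fibroblasts. In PIB it was at 88.1% (72.6 to 106.9%, not called). In PIP it fell to 0.692, 0.394, 0.0898 and 0.456 CPM, some at or near the level a count of 0 allows there (a fitted 3.99%). PIB minus C9a.SII was -2.40 ± 0.15 on the log2 scale (adjusted p = 3e-07). In hCD2.SII Col4a6 was already raised on day 3, at 75.2, 66.2, 50.4 and 54.2 CPM against 11.3 to 14.2 CPM in hCD2.MEF, a rise to 520% (426 to 634%). At day 9 hCD2.SII held 41.4, 10.6 and 14.95 CPM, at 181% (91.6 to 359%, not called), and without replicate 1 the log2 change was -0.02. Col4a3 and Col4a4, the remaining pair, were at or under 1.75 CPM on average in all MEF and reporter+CD45+ groups, and Col4a4 was called higher in hCD2.SII at day 9 at 1.49 against 0.512 CPM.

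Col7a1 and Col18a1 belong to the basement membrane zone. Col7a1, of anchoring fibrils, was at 105.2 ± 11.6 CPM in C9a.MEF (SD, n = 4) and fell to 11.5% in PIB, 9.78% in PIP and 30.1% in C9a.SII. Col18a1, the precursor of endostatin, was at 48.7 ± 3.24 CPM and stood at 70.3% in PIB (57.9 to 85.3%, not called), and fell to 34.2% in PIP and 11.3% in C9a.SII. Col18a1 overlaps the folate carrier gene Slc19a1 in the annotation, and the strand setting of the counting is not given, so its values are uncertain. Neither gene rose at day 9 in any cocktail.

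Type VI collagen came apart by chain. Col6a3, the alpha-3 chain and the longest of the classical type VI chains, was at 845, 917, 876 and 860 CPM in C9a.MEF and at 501, 578, 478 and 610 CPM in PIP at day 9. No libraries overlapped, and the level was 72.3% (66.7 to 78.4%, edgeR adjusted p = 9.9e-07, less than 2-fold). On day 3 PIP libraries held 1353, 1424 and 1058 CPM, or 158.3% (127.01 to 197%), above all fibroblast libraries. In C9a.SII at day 9 Col6a3 was at 16.6, 16.1, 15.4 and 35.5 CPM and fell to 2.53% (1.59 to 4.002%, log2 -5.31 ± 0.29 SE, adjusted p = 1.3e-06). Against C9a.SII, PIP was higher by 4.83 ± 0.28 and PIB by 4.26 ± 0.34 (log2, SE, adjusted p = 7.5e-07 and 8.7e-06). In PIB Col6a3 was at 328, 317, 348, 403 and 677 CPM, 49.1% (35.6 to 67.7%), a call that was lost with no low-count filter (log2 -0.98), in 1 fit over all groups (-1.002) and without replicate 1 (-0.97), 2 (-0.95) or 3 (-0.97).

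The partner chains did not keep step with Col6a3 in PIP. Col6a1 was at 650 ± 39.8 CPM in C9a.MEF and at 15.8 ± 3.04 CPM in PIP at day 9 (SD, n = 4 each), a fall to 2.85% (2.32 to 3.52%). Col6a2 was at 539 ± 33.1 and 35.3 ± 6.23 CPM, a fall to 7.65% (6.54 to 8.95%). In PIB they fell to 14.1% and 16.2%, and in C9a.SII to 8.24% and 10.4%. The ratio of Col6a1 to Col6a2 was 1.21 in C9a.MEF, 1.05 in PIB, 0.449 in PIP and 0.901 in C9a.SII at day 9. For PIP against C9a.MEF the two-sided exact permutation test gave p = 0.0286 (n = 4 each), the smallest that design allows.

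Of the short chain collagens, Col8a1, which forms networks in vessel walls and the eye, was at 193 ± 6.84 CPM in C9a.MEF (SD, n = 4) and at 58.6% in C9a.SII (50.8 to 67.6%, below 2-fold). It fell to 48.5% in PIB, where the call was lost with no low-count filter and without replicate 1 or 4, and to 11.1% in PIP. Col8a2 fell from 18.1 ± 3.56 CPM to 5.39% in PIB, 3.94% in PIP and 9.04% in C9a.SII. Col10a1, the collagen of hypertrophic cartilage, fell to 15.7% in PIB and 9.84% in PIP, and was at 54.5% in C9a.SII (32.1 to 92.5%, adjusted p = 0.058). Col10a1 overlaps Nt5dc1 in the annotation, and its values are uncertain for the same reason as those of Col18a1.

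Among the FACIT collagens, Col12a1 led in SII cells. Col12a1, the type XII chain, was at 4475, 4658, 4386 and 4578 CPM in C9a.MEF and at 1063, 2029, 1891 and 2039 CPM in C9a.SII at day 9. It fell to 40.6% (34.1 to 48.3%), and at 30.8% of collagen counts it was the leading collagen there. In PIB it was at 662, 805, 747, 621 and 404 CPM and fell to 15.02% (11.1 to 20.4%). In PIP it was at 76.7, 59.9, 80.8 and 57.8 CPM and fell to 1.79% (1.39 to 2.30%). The difference from C9a.SII was -1.46 ± 0.20 in PIB and -4.52 ± 0.20 in PIP (log2, SE, edgeR adjusted p = 0.00023 and 5.3e-08).

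Col16a1, another FACIT collagen, was at 253, 257, 260 and 245 CPM in C9a.MEF and at 99.4, 403, 377 and 381 CPM in C9a.SII, 127.8% (75.6 to 216%, not called). The low value was that of replicate 1. It fell to 45.7% in PIB and 27.6% in PIP. Col25a1, a transmembrane collagen of neurons, fell from 20.9 ± 1.84 CPM (SD, n = 4) to 12.3% in PIB and 20.3% in PIP, and was at 51.5% in C9a.SII (40.6 to 65.4%, just short of 2-fold).

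**Figure D5:**
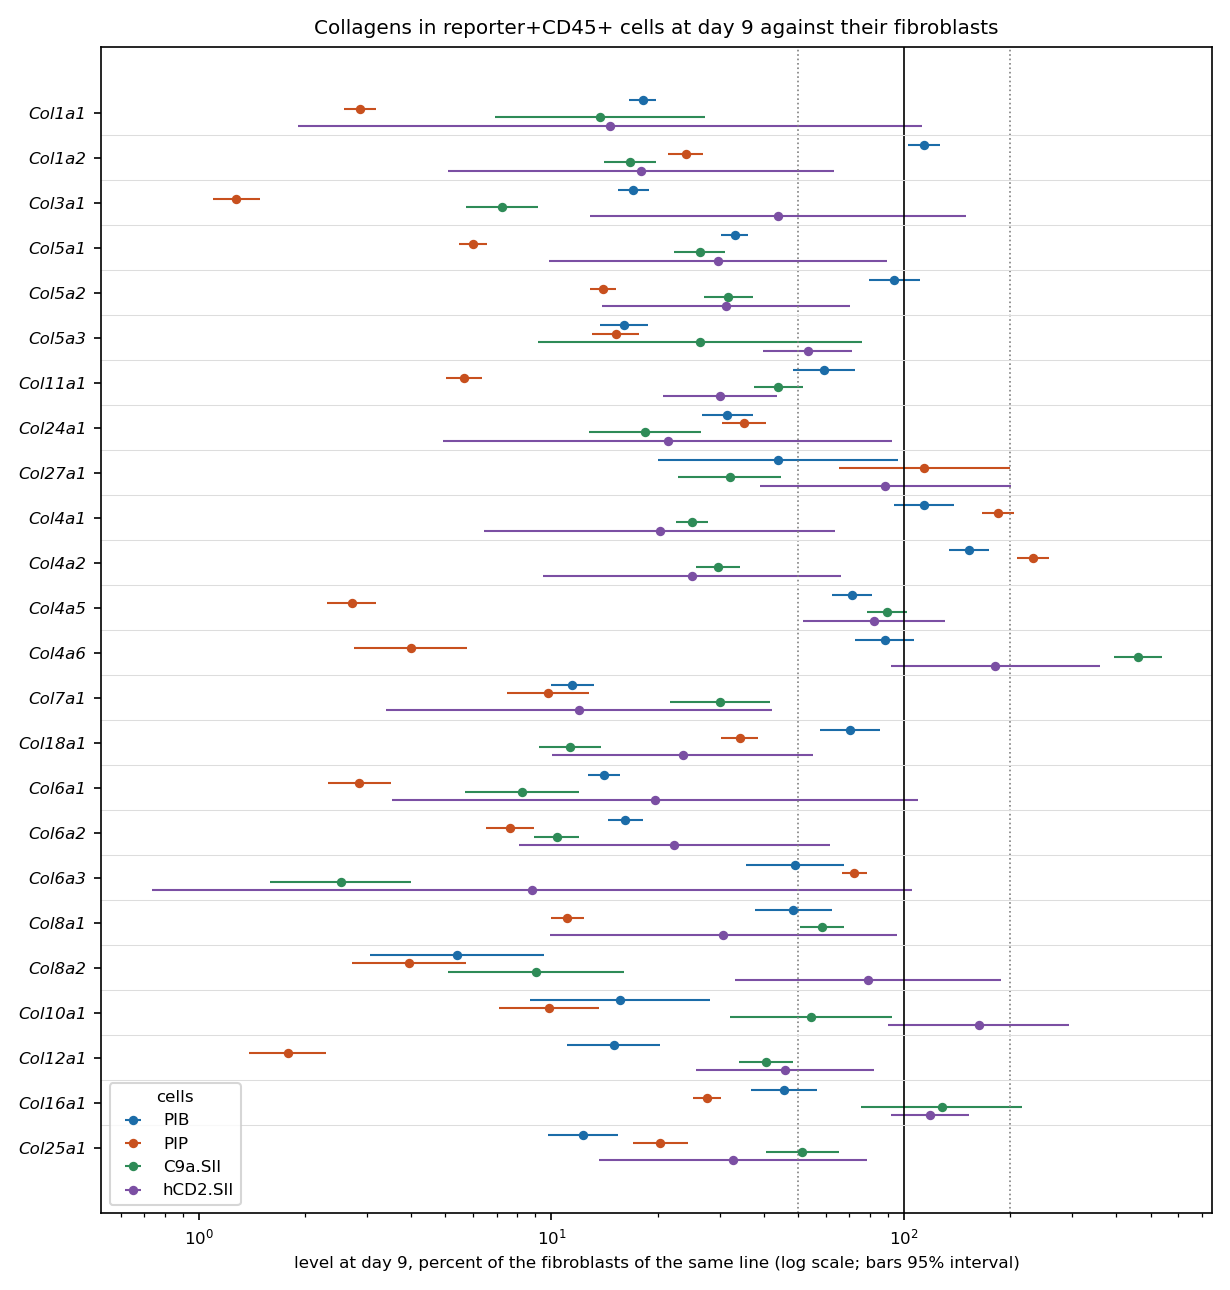
Level of 24 collagens in reporter+CD45+ cells at day 9 as percent of the fibroblasts of the same line (points, log axis, bars 95% intervals of the fit), for PIB, PIP, C9a.SII and hCD2.SII; dotted lines mark 2-fold. Points lie left of 100% except for Col1a2, Col4a1 and Col4a2 (PIB), Col27a1, Col4a1 and Col4a2 (PIP), Col4a6 and Col16a1 (both SII groups) and Col10a1 (hCD2.SII).

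Ordered by level per kilobase of the longest coding transcript, which allows genes to be compared, the leading collagen differed between groups. In C9a.MEF the order of mean CPM per kilobase was Col1a1 (1112), Col1a2 (733), Col12a1 (393) and Col3a1 (374), of which the last pair overlapped between libraries. In PIB at day 9 it was Col1a2 (800), Col4a2 (203), Col1a1 (193) and Col5a2 (160), and neighbours after Col1a2 overlapped. In PIP it was Col4a2 (276), Col4a1 (209), Col1a2 (151.2) and Col6a3 (53.6), the leading 3 overlapping with their neighbours. Overlap here is of ranges over libraries: within each PIP library the leading 3 stood in this order. In C9a.SII it was Col12a1 (152.5), Col1a1 (136.7) and Col1a2 (114.02), again overlapping.

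The hCD2.SII cells of day 9 are given by library because replicate 1 set most values. Col1a1 was at 2801, 145.9 and 101.8 CPM, Col6a3 at 172, 1.495 and 5.61 CPM and Col12a1 at 2521, 1013 and 871 CPM. Summed smooth muscle and pericyte markers went the same way, at 592, 57.3 and 40.6 CPM, and their part was not tested. With all 3 libraries Col1a1 was at 14.7% of hCD2.MEF (1.91 to 112.6%, adjusted p = 0.12, not called). Without replicate 1 its log2 change was -5.85, that of Col1a2 -4.04, of Col3a1 -2.80 and of Col6a3 -7.68, and all were called. Col12a1 was called with all libraries (log2 -1.12) and without replicate 1 (-1.81). Col4a1 and Col4a2, called lower with all libraries at 20.3% and 25.03%, were at -3.66 and -3.16 on the log2 scale without it. With all 3 libraries the calls of Col12a1, Col4a1 and Col4a2 were lost with no low-count filter, without any one hCD2.MEF replicate and without replicate 2 or 3.

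The change from fibroblasts to SII cells at day 9 was compared between the lines as an interaction. The lines differ in genotype and in reporter, and these cannot be told apart. Of 40 collagens 0 were called (edgeR), beside 0.388% and 0.18% of all genes called in either direction. At an unadjusted p under 0.05 there were 9, and the DESeq2 Wald test called 2 (Col28a1 and Col8a2). Col3a1 had an interaction of 2.63 ± 0.75 (log2, SE, adjusted p = 0.14), and Col4a6 one of -1.31 ± 0.45 (adjusted p = 0.22), hCD2 minus C9a. Without hCD2.SII day 9 replicate 1 the test called 14, and without C9a.SII day 9 replicate 1 it called 3 (Col23a1, Col5a3 and Col8a2). Without C9a.SII replicate 2, hCD2.SII replicate 2 or hCD2.SII replicate 3 it called 1, 2 and 2. The untransduced lines themselves differed in 5 collagens, all lower in hCD2.MEF (Col10a1, Col23a1, Col28a1, Col3a1 and Col8a2), beside 1.43% of genes higher and 1.5% lower. Col3a1 was at 1010 ± 82.6 CPM in hCD2.MEF and 2082 ± 138.6 CPM in C9a.MEF (SD, n = 4 each), a difference of -1.02 on the log2 scale that lost its call without C9a.MEF replicate 3 or hCD2.MEF replicate 3.

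Lower collagen levels were already present on day 3. Against C9a.MEF, PIB at day 3 had 1 collagen higher and 15 lower of 36 (11.9% and 10.9% of all genes) and PIP 3 higher and 21 lower of 34 (10.6% and 11.1%). Scaled by library totals alone, PIB had 1 higher and 18 lower, the median of all genes moved by -0.23 (log2), and 38.2% instead of 52.2% of all called genes were higher. C9a.SII had 3 higher and 20 lower of 36 (8.84% and 8.71%), and hCD2.SII against hCD2.MEF had 3 higher and 14 lower of 33 (10.8% and 13.3%). Col1a1 on day 3 was at 19.1% of the fibroblasts in PIB (16.4 to 22.2%), 17.3% in PIP (11.8 to 25.4%), 12.4% in C9a.SII (9.16 to 16.7%) and 22.9% in hCD2.SII (18.3 to 28.7%). Col1a2 was at 88.7% in PIB (77.9 to 100.98%), 36.7% in PIP, 30.4% in C9a.SII and 52.8% in hCD2.SII. Col4a2 in PIP was called higher on day 3 at 202% (162.02 to 253%, log2 1.02), a call lost in several alternatives, among them library totals only, the replicate block and no low-count filter.

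Changes from day 3 to day 9 were tested within each cocktail, and a difference between cocktails in this change was not tested. In PIP 13 of 35 collagens fell and 0 rose, beside 2.95% of all genes lower and 3.25% higher (6.21% in either direction). Scaled by library totals alone, 0 rose and 14 fell, and 41.95% instead of 52.4% of all called genes were higher. Col1a1 went from 762, 812 and 1687 CPM on day 3 to the 148.96 to 178 CPM given above, a change of -2.61 ± 0.24 (log2, SE, edgeR adjusted p = 0.00053). Col3a1 changed by -3.15 ± 0.32 (adjusted p = 0.0011), Col18a1 by -2.23 and Col8a1 by -1.63. Day 3 replicate 3, the PIP library with the low Ptprc, was the highest of its group for these genes, and without it 12 collagens were called: Col24a1 (1.16) was called higher, and Col5a3 (-0.91) and Col6a2 (-0.77) were no longer called. Without day 3 replicate 3 the change of Col12a1 went from -2.74 to -1.61 and that of Col4a5 from -2.57 to -1.60. Without day 9 replicate 2, 7 were called, all lower, and Col12a1, Col4a5, Col5a1, Col5a3, Col6a2 and Col7a1 were no longer among them. Col4a1 and Col4a2 did not change by the test, at 109.5% (85.5 to 140%) and 113.9% (88.3 to 147.1%) of day 3, whereas Col6a3 changed by -1.14 ± 0.15 (adjusted p = 0.0018).

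In PIB few collagens changed between these days. Of 36 tested, Col16a1 and Col3a1 rose and Col10a1, Col15a1, Col6a5 and Col9a2 fell, beside 3.67% of genes higher and 8.47% lower. Scaled by library totals alone, which moved the median of all genes by 0.20 (log2), 3 rose and 4 fell, and 47.3% instead of 30.3% of all called genes were higher. Col3a1 went from 174, 177, 118.5 and 112.6 CPM to 313 to 353 CPM, a rise of 1.02 ± 0.09 (log2, SE, edgeR adjusted p = 7.4e-06), with the libraries apart. Its call, like that of Col16a1 (1.00 ± 0.15, adjusted p = 0.00064), was lost without some single libraries, day 3 replicate 4 among them, and without day 9 replicate 5 Col16a1 was at 0.87 and Col12a1, at 0.99 with all libraries, was called at 1.14. On day 6 PIB already held 325 to 351 CPM of Col3a1. Col1a1 was at 93.1% of day 3 (80.4 to 107.8%) and Col4a2 at 125.7% (105.4 to 150%), both without a call.

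In SII no collagen was called between day 3 and day 9. In C9a.SII edgeR called 0 of 34 (0.103% of all genes higher and 0.00643% lower, 0.109% in either direction), with 9 at an unadjusted p under 0.05, and the DESeq2 Wald test called 3 (Col24a1 higher, Col10a1 and Col18a1 lower). Without day 3 replicate 2, whose Ptprc was 1.52 CPM, Col1a2 (-1.12) and Col3a1 (-1.28) were called lower. In hCD2.SII edgeR called 0 of 36 (4.48% and 2.07% of all genes), with 6 at an unadjusted p under 0.05 and 4 by the DESeq2 Wald test. Without day 9 replicate 1 it called 20, 3 higher and 17 lower. Col4a6 in C9a.SII stood at 25.8 to 51.5 CPM on day 3, 34.1 to 92.4 CPM on day 6 and 39.2 to 68.7 CPM on day 9, with overlap throughout.

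Day 6 libraries entered no test. In PIP at day 6, replicate 4 held 1418 CPM of Col1a1 and the other 3 libraries 169 to 203 CPM. That replicate also held 7598 CPM of summed fibroblast markers, against 2782 to 3280 CPM in the others, and less of the leukocyte markers, at 444 against 811 to 873 CPM. In PIB Col1a2 stood at 4100 to 4620 CPM on day 6.

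Between cocktails at day 9, 13 collagens were higher in PIB than in PIP and 2 lower of 34 tested, beside 10.6% and 11% of all genes. Besides the type I chains these were led by Col4a5 (4.74 ± 0.17), Col4a6 (4.50 ± 0.31), Col3a1 (3.76 ± 0.10) and Col11a1 (3.42 ± 0.18, log2 with SE). The 2 lower in PIB were the minor FACIT chains Col9a2 and Col9a3. Col9a3 overlaps Tcfl5 in the annotation, and its values are uncertain for the same reason as those of Col18a1. Col4a1 was lower in PIB than in PIP by less than 2-fold, at 62.7% (50.7 to 77.5%). PIB against C9a.SII gave 9 higher and 7 lower of 35 (8.44% and 10.1% of all genes), and PIP against C9a.SII 8 higher and 16 lower of 36 (10.9% and 11.5%). Col1a1 did not pass between PIB and C9a.SII, at 131.4% (80.8 to 214%, edgeR adjusted p = 0.35). These 3 comparisons share their libraries in pairs.

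Cells sorted by a single marker at day 9 were set beside the reporter+CD45+ cells. Col1a1 averaged 1555 ± 344 CPM in CD45+ PIB cells (SD, n = 4) and 1570 ± 372 CPM in tdT+ PIB cells (n = 5), where Ptprc was 72.6 and 5.21 CPM. Col4a2 averaged 1978 CPM in CD45+ and 1571 CPM in tdT+ PIP cells. Col12a1 averaged 2810 CPM in CD45+ and 2452 CPM in tdT+ C9a.SII cells. Against the reporter gate, edgeR called Col12a1 lower in reporter+CD45+ PIB cells at 37.9% (25.04 to 57.4%, adjusted p = 0.014), 1 of 34 collagens and a call lost with no low-count filter and in 1 fit over all groups, beside 0.94% of genes higher and 0.762% lower, or 1.7% in either direction. It called 0 of 36 in PIP (0.0122% and 0%; 5 at an unadjusted p under 0.05, and 0 by the DESeq2 Wald test) and 0 of 32 in C9a.SII (0.115% and 0.0321%; 10 at an unadjusted p under 0.05, and 0 by the DESeq2 Wald test). The YFP+ hCD2.SII cells held more, with Col1a1 at 4074 ± 292 CPM (n = 4) and Ptprc at 0.532 CPM. Of 37 collagens edgeR called Col11a2 and Col6a5 higher in YFP+CD45+ cells (8.08% of genes higher, 4.13% lower), and without day 9 replicate 1 it called 26, 3 higher and 23 lower. Without any other single library of that comparison it called 0 or 1, and Col11a2 and Col6a5 were not among them.

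Freshly isolated splenic dendritic cells held few collagen counts, 0.0179 to 0.0261% of all counts in cDC1, 0.0102 to 0.0130% in cDC2 and 0.00786 to 0.194% in pDC. The highest pDC share was that of replicate 1, which also held 9756 CPM of smooth muscle and pericyte markers. Col27a1 was the leading collagen of cDC1 and cDC2 per kilobase, at 37.3 ± 3.39 and 49.99 ± 2.15 CPM (SD, n = 3 each). Col1a1 averaged 5.96 CPM in cDC1 and Col4a2 6.06 CPM, and Col4a1 2.32 CPM in cDC2.

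The 20 collagens outside the rule reached group means of at most 9.86 CPM in fibroblasts and reporter+CD45+ cells (Col2a1 in C9a.SII on day 3). Those called higher at day 9 were all minor. They were Col6a6 in PIB (1.13 against 0.503 CPM), Col14a1 (6.61 against 3.18 CPM), Col26a1 (0.907 against 0.491 CPM), Col6a6 (1.34 CPM) and Col9a3 (3.65 against 0.979 CPM) in PIP, Col9a2 in C9a.SII (6.11 against 1.83 CPM) and, in hCD2.SII, Col4a4 and Col6a5 (3.68 against 0.844 CPM). Several of these means lie near the limit set by a count of 0, and those of Col9a3 are uncertain through its overlap with Tcfl5.

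Genes that make, trim, bind and degrade collagen were counted from lists chosen for their roles, with earlier results of these data known. The counts are at day 9 against the fibroblasts. The shares of all genes called higher and lower were 10.4% and 11.4% (PIB), 15.2% and 14.5% (PIP) and 10.3% and 11.1% (C9a.SII). Of 21 tested genes for folding and modification inside the cell, 1 rose and 0 fell in PIB, 2 rose and 8 fell in PIP, and 1 rose and 10 fell in C9a.SII, with median log2 changes of -0.32, -0.40 and -0.92 (all genes 0.00, 0.05 and 0.01). Serpinh1, the collagen chaperone, was at 1169 ± 22.5 CPM in C9a.MEF and at 650 ± 63.6 CPM in PIB (n = 5), less than 2-fold lower. It fell to 402 ± 21.8 CPM in PIP (n = 4) and to 215 ± 34.6 CPM in C9a.SII (n = 4), a log2 change of -2.36 ± 0.06 there (edgeR adjusted p = 1.4e-09). P3h2, a prolyl hydroxylase known to act on type IV collagen, rose in PIB from 9.52 to 51.2 CPM. P4ha3 fell in PIP from 104.3 to 1.71 CPM and Creb3l1, a transcription factor of collagen secretion, from 134.1 to 10.4 CPM.

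Of 13 genes of processing and crosslinking outside the cell, 1 rose and 8 fell in PIB, 3 rose and 8 fell in PIP, and 1 rose and 10 fell in C9a.SII (all genes as above). Lox, which crosslinks collagen, fell from 1520 ± 74.9 CPM to 331 ± 38.1 CPM in PIB, 24.1 ± 4.59 CPM in PIP and 168 ± 24.1 CPM in C9a.SII (SD, n = 5, 4 and 4). Adamts2, which trims the procollagen ends, fell to 5.42 CPM in C9a.SII from 105.1 CPM. Adamts3, its relative, rose in PIB from 3.44 to 24.97 CPM and in hCD2.SII from 2.88 to 19.7 CPM. Of the collagen receptors, 1 rose and 2 fell of 9 in PIB, 1 and 2 of 8 in PIP, and 0 and 3 of 8 in C9a.SII. Called in either direction were 21.8%, 29.6% and 21.3% of all genes, so these counts lie near the background. Itga11, an integrin chain for fibrillar collagen, fell in PIB from 122.8 to 33.4 CPM.

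Of the genes of collagen breakdown, 2 rose and 1 fell of 8 in PIB, 3 rose and 2 fell of 7 in PIP, and 0 rose and 5 fell of 7 in C9a.SII, beside the same shares of all genes. A difference between cocktails was not tested for the list. Ctsk, a lysosomal protease that cleaves collagen, rose from 41.7 ± 2.93 CPM to 505 ± 125.4 CPM in PIB and 1235 ± 104.5 CPM in PIP, by 3.67 and 5.11 on the log2 scale (edgeR adjusted p = 2.7e-06 and 1.1e-18). In C9a.SII it fell to 4.97 ± 2.64 CPM. Mmp9, a gelatinase, rose in PIP from 38.1 to 340 CPM, while Mmp2, the other gelatinase, fell there from 614 to 26.4 CPM. Mmp13, a collagenase, fell in C9a.SII from 136.3 to 2.16 CPM. In hCD2.SII the 4 lists had 1 higher and 5 lower of 21, 1 and 5 of 13, 0 and 2 of 8 and 0 and 1 of 7, beside 10.8% of all genes higher and 8.42% lower. The collagen calls of that comparison turned on replicate 1.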

How the data were processed

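RNA from 5000 sorted cells was made into SMARTer Stranded Total RNA-Seq (Pico) libraries, per the labels' protocols. The authors deposited a table of read counts per Ensembl gene for 167 libraries in 41 groups. The submitters' processing notes name STAR 2.7.9a, Salmon 1.10.1 and mm10, the counter, annotation release and strand setting are not given in the sources used here. Groups came from the sample labels. Gene symbols were matched by Ensembl identifier, 4981 identifiers had none.

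From the deposited counts, levels were computed as CPM (counts scaled to a common library total), and 21 comparisons were fitted over all genes with edgeR 4.0.16 (TMM, filterByExpr, robust quasi-likelihood test) in R 4.3.3, with only the groups compared in each fit. A call needed a Benjamini-Hochberg adjusted p under 0.05 and 2-fold. Percentages of a reference group are fitted fold changes with 95% intervals, and an SE is the log2 change divided by the root of F. The fits were tested on simulated data. Chain ratios used exact permutation tests (scipy 1.17.1).

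A collagen is named where every library of at least 1 MEF or reporter+CD45+ group reached 10 CPM. Collagens called higher at day 9 or nearest below that level are also named, and from each other list up to 4 called genes with the largest change at 10 CPM or more. Ptprc and the transduced factors serve as label checks. The members and lists were chosen with earlier results of these data known. Alternatives were DESeq2 1.42.0 size factors or Wald test, library totals only, no low-count filter, 1 fit over all groups, a block for the replicate number, and leaving out shallow libraries (under 2000000 counts), reporter+CD45+ libraries under 5 CPM of Ptprc, or each library in turn. No 2 of the 266 replicate pairs agreed within sampling noise (lowest chi-square per degree of freedom 2.88).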

Additional observations from a re-analysis of the deposited data

Results flagged for a closer look

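In all, 275 sets of replicate values were tested: a named collagen, or the summed collagen share, in a MEF or reporter+CD45+ group of 4 or 5 libraries. Of these sets, 37 held 1 library far from the others, and all 37 lay in reporter+CD45+ groups. Chance gives about 5% in a single set. The sets share their libraries and are not independent, so the count of 37 cannot be weighed against that share. Of the 37, 16 lay in PIP day 6 replicate 4, the library with more fibroblast and fewer leukocyte marker counts than its group. Its fibrillar chains stood at 1418 CPM for Col1a1 (the others 169 to 203), 633.7 CPM for Col3a1 (26.04 to 41.1), 623.0 CPM for Col5a1 (88.96 to 110.5), 345.8 CPM for Col5a2 (115.3 to 148.6), 17.05 CPM for Col5a3 (6.51 to 7.88), 48.36 CPM for Col11a1 (4.91 to 7.42) and 44.63 CPM for Col24a1 (13.0 to 16.7). Its FACIT chains stood at 697.9 CPM for Col12a1 (43.9 to 80.7) and 186.9 CPM for Col16a1 (42.2 to 57.5). Col4a5 was at 45.29 CPM (4.03 to 5.65), Col7a1 at 59.41 CPM (9.03 to 15.8), Col18a1 at 39.7 CPM (12.8 to 14.5), Col6a1 at 158.3 CPM (17.4 to 18.2) and Col6a2 at 182.2 CPM (31.96 to 39.7). Col8a2 was at 4.929 CPM (0.184 to 0.644) and Col10a1 at 3.863 CPM (1.21 to 1.30).

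In C9a.SII at day 9, replicate 1, the shallowest library, was low for Col12a1 (1063 CPM, the others 1891 to 2039), Col16a1 (99.4 CPM, 377 to 403) and Col25a1 (3.488 CPM, 11.1 to 11.7). It was high for Col1a1 (1373 CPM, 559 to 667) and Col5a3 (40.98 CPM, 5.89 to 8.21), and replicate 4 was high for Col6a3 (35.45 CPM, 15.4 to 16.6). In C9a.SII at day 6, replicate 3 was high for Col12a1 (1995 CPM, 1425 to 1505) and Col8a1 (106.8 CPM, 58.03 to 63.9) and low for Col7a1 (9.244 CPM, 26.9 to 29.8), and replicate 4 was high for Col11a1 (188.5 CPM, 53.2 to 58.5) and Col16a1 (491.7 CPM, 287 to 298). In C9a.SII at day 3, replicate 2 was high for Col8a2 (5.885 CPM, 1.03 to 1.26).

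In PIB at day 9, replicate 5 was high for Col1a2 (5257 CPM, 3825 to 4236), Col6a3 (677.4 CPM, 317 to 403) and Col8a1 (136.6 CPM, 70.7 to 89.4), and replicate 1 for Col10a1 (4.14 CPM, 0.892 to 1.80). On day 3, replicate 1 was high for Col27a1 (44.71 CPM, 4.60 to 6.21), and on day 6, replicate 1 was low for Col25a1 (2.663 CPM, against 2.821 to 2.825). In PIP, day 9 replicate 1 was low for Col27a1 (20.54 CPM, 56.7 to 61.1), day 9 replicate 3 was low for Col5a2 (123.6 CPM, 146.3 to 149.1), and day 6 replicate 1 was high for Col4a1 (1694 CPM, 1258 to 1290).

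Named collagens that differed between day 9 and day 3 in edgeR are given as log2 changes. In PIB these were Col10a1 (-1.90), Col16a1 (1.00) and Col3a1 (1.02). In PIP they were Col10a1 (-1.69), Col12a1 (-2.74), Col18a1 (-2.23), Col1a1 (-2.61), Col3a1 (-3.15), Col4a5 (-2.57), Col5a1 (-1.63), Col5a3 (-1.01), Col6a1 (-2.34), Col6a2 (-1.18), Col6a3 (-1.14), Col7a1 (-2.06) and Col8a1 (-1.63). Splenic cells, which entered no comparison, held Col11a2 at a mean of 12.45 CPM in cDC1 (10.1 to 15.6), Col23a1 at 15.82 CPM in cDC1 (14.7 to 17.6) and Col17a1 at 16.83 CPM in pDC (14.2 to 21.4).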

How the results depend on the processing

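Counts of called collagens stayed within 1.5 times under every alternative for PIB, PIP and C9a.SII at day 9 against C9a.MEF (17 to 21, 25 to 27 and 19 to 25), for all 4 day 3 comparisons, for the 3 comparisons between cocktails and for PIB between days. The others moved as follows, and the cause was not tested. For hCD2.SII at day 9 against hCD2.MEF, 11 were called, 4 with no low-count filter, 20 by the DESeq2 Wald test, 19 in 1 fit over all groups and 2 to 26 with 1 library left out. For PIP between days, 13 were called, 8 in 1 fit over all groups and 7 to 14 with 1 library left out. For C9a.SII between days, 0 were called, 2 with no low-count filter, 3 by the Wald test, 2 without libraries under 5 CPM of Ptprc and 0 to 2 with 1 left out. For hCD2.SII between days, 0 were called, 1 with no filter, 4 by the Wald test, 3 in 1 fit over all groups and 0 to 20 with 1 left out. Against the reporter gate, PIB had 1 call, 2 by the Wald test, 0 in 1 fit over all groups and 1 to 2 with 1 left out, C9a.SII had 0 and 1 with no filter, and hCD2.SII had 2, 4 with no filter, 15 by the Wald test, 14 in 1 fit over all groups and 0 to 26 with 1 left out. Between the fibroblast lines 5 were called, 0 in 1 fit over all groups and 4 to 5 with 1 left out. In the interaction 0 were called, 2 by the Wald test, 1 in 1 fit over all groups, 3 without libraries under 2000000 counts and 0 to 14 with 1 left out. The collagen share of PIB at day 6 was 1.281% with TMM-scaled totals.

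The labels number the replicates, but no comparison had every same-numbered pair correlated over 0.1 (range -0.398 to 0.506), so the numbers were not taken as pairs. With the replicate number as a block, PIP between days had 7 calls, hCD2.SII against the reporter gate 0, and the other counts stayed within 1.5 times.

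Of 7353 gene results, 9 changed direction with a call in either fit, all without hCD2.SII day 9 replicate 1, which gave the low end of each range with 1 library left out. Between days these were Col24a1 (-2.11 to 0.86), Col3a1 (-1.31 to 0.70) and Col6a1 (-2.33 to 0.62), and in the interaction Col1a1 (-2.88 to 0.71), Col1a2 (-1.38 to 0.55), Col24a1 (-2.30 to 0.73), Col5a1 (-1.15 to 0.59), Col6a1 (-1.21 to 1.76) and Col6a3 (-2.29 to 2.39). Of the other gene results 7028 stayed on their side of the call limits, among them uncalled values that changed sign under several alternatives, and the rest lost or gained a call. Of all called genes, 83.3% instead of 94.1% were higher for C9a.SII between days with library totals only, and 57.8% instead of 68.3% in the interaction with DESeq2 size factors. Minor collagens are limited by depth: at the lowest total a count of 0 allows 2.62 CPM.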
